A study of Rattus norvegicus with 20 samples.

Results

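A set of astrocyte genes was followed across the dorsal and the ventral subiculum of the rat, with and without a seizure-inducing stimulation. The genes were Slc1a2 (ENSRNOG00000005479), Slc1a3 (ENSRNOG00000016163), Glul (ENSRNOG00000049560), Aqp4 (ENSRNOG00000016043) and Gja1 (ENSRNOG00000000805), and they were chosen by these gene IDs, as 5 of the 32883 IDs in the count table. All 5 were present and passed the filter on low counts. The deposited table holds IDs only, so the symbols come from the list that defined the genes and were not checked against an annotation of the files' build.

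The subiculum is the output region of the hippocampus. All animals were wild-type Wistar rats aged 3 months, and laser-microdissected tissue of each region gave 1 stranded mRNA library per sample. The 4 groups, each of 5 libraries, were dorsal control, ventral control, dorsal preconditioning and ventral preconditioning. Preconditioning is the submitters' word for their stimulation protocol, which the series title describes as electrically evoked acute seizures by way of the perforant pathway, the fibre tract that enters the hippocampus from the entorhinal cortex. Tissue was taken 24 hours after it, and the labels name no other agent, no sham operation for the controls and no sex. The labels do not say whether libraries came from separate animals, so p-values measure only the spread between these samples, which may be technical.

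Astrocytes clear glutamate, the main excitatory transmitter, from around synapses through the transporters GLT-1, encoded by Slc1a2, and GLAST, encoded by Slc1a3. Glutamine synthetase, encoded by Glul, turns the glutamate into glutamine, which neurons take back to make new transmitter. Aquaporin-4, encoded by Aqp4, is the water channel of astrocyte endfeet around blood vessels, and connexin 43, encoded by Gja1, forms the gap junctions that join astrocytes into a network through which potassium and small metabolites spread. In tissue with seizures these functions are of interest because neuronal firing releases glutamate and potassium and moves water.

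The results below turn on Aqp4 and Gja1, so the stretches around their transcription starts are shown for reference. They are RefSeq windows of the GRCr8 assembly, matched by symbol, from 250 bases before to 50 bases after each annotated start, and that is not the build named for the counts. Aqp4 has a pair of such windows on the minus strand, chr18:6798793-6799092 and chr18:6797877-6798176, and Gja1 has 1 on the plus strand, chr20:36302314-36302613. Capitals mark the letters TGANTCA, the AP-1 motif bound by Fos and Jun proteins, the products of genes that seizures are known to induce.
Aqp4, first window: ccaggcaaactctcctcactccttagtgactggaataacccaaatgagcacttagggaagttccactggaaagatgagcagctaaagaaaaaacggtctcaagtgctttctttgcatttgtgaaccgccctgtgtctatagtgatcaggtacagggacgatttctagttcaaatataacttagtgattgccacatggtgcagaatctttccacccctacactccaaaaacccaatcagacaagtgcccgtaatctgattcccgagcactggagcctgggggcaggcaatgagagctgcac
Aqp4, second window: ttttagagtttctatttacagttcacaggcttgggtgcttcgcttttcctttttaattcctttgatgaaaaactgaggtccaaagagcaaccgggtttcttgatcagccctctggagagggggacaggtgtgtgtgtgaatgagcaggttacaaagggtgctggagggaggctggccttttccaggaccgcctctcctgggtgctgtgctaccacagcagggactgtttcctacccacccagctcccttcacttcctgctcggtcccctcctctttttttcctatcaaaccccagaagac
Gja1: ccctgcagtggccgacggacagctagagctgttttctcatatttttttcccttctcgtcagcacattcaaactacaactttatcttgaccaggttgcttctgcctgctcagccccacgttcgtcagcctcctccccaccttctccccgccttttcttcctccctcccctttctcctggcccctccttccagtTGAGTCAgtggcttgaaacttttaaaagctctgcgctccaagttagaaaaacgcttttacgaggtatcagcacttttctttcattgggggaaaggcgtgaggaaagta
The search covered both strands for TGANTCA, for the cAMP response element TGACGTCA and for the STAT motif TTCNNNGAA, whose matches did not overlap here. The Gja1 window held 1 AP-1 match, TGAGTCA, starting at its base 193, and the Aqp4 windows held none of the 3 motifs. Nor did the 7 windows of Slc1a2, Slc1a3 and Glul, of which those of Slc1a3 cover nearly the same bases. Of 33469 such windows in the RefSeq table, 7.33% held the AP-1 letters, 1.83% the cAMP response element and 8.87% the STAT letters. These matches are descriptions of the letters and say nothing of binding.

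Total counts per library ranged from 3087146 to 20463678, the lowest and the highest both among ventral controls. On the first principal component of log2 CPM, with 43.3% of the variance, the libraries parted by region. Dorsal control 4 stood apart on the fourth component, at 60.1, with the other 19 libraries between -25.7 and 20.6, and ventral control 2 had the highest value on the second, at 43.2, against at most 17.5 elsewhere. Dorsal preconditioning 2 had the lowest value on the fourth component, and ventral control 4, at 32.1, lay nearest to the dorsal libraries of all ventral ones on the first. The fits and the ratio comparisons below were recomputed without these 4 libraries. Ventral control 4 lay close to the next library, ventral preconditioning 2 at 33.2. Ventral preconditioning 3, with the lowest value on the second component at -36.3, was kept. So was dorsal control 3, at -25.3 the dorsal library nearest to the ventral ones on the first. The third component, with 9.30% of the variance, is not described here. The tissue could not be checked against markers of other cell types, since no other gene ID is paired with a name here. Counts are given as counts per 1000000 (CPM) after scaling between libraries. They are not divided by transcript length, so levels are compared between samples and not between genes. In bulk tissue, fewer astrocytes and less RNA per astrocyte cannot be told apart.

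The clearest change with treatment was in the water channel gene. Aqp4 was higher after preconditioning in the ventral subiculum by 1.57-fold, and it was the only 1 of the 5 genes to pass the test there. The gap junction gene Gja1 was lower by 1.21-fold in the same libraries, without passing the test. In the dorsal subiculum their estimates had the same signs, and none passed. The 3 glutamate genes gave no called difference with treatment in either region.

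In ventral controls 1 to 5, Aqp4 measured 156, 196, 191, 171 and 155 CPM. In ventral preconditioning 1 to 5 it measured 211, 309, 233, 276 and 332 CPM. Every preconditioned library lay above every control, so the groups did not overlap. The means were 174 ± 19.2 and 272 ± 50.4 CPM (SD, n = 5 each), which edgeR fitted as a log2 change of 0.65 (SE 0.13, 95% interval 0.36 to 0.93, adjusted p = 0.0101, quasi-likelihood test). The call held in all 17 alternative fits, with adjusted p-values from 0.000161 to 0.0400. Of all 13291 genes tested in this comparison, 5.06% were called, with 2.93% called in the higher direction, and 3.82% were higher with groups that did not overlap.

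Dorsal Aqp4 measured 240.0, 357, 208, 166 and 244 CPM in controls 1 to 5 and 329, 400.0, 338, 331 and 357 CPM in preconditioning 1 to 5. A single library, dorsal control 2 at 357 CPM, made the groups overlap, and the other 4 dorsal controls lay below all preconditioned libraries. The means were 243 ± 71.2 and 351 ± 29.6 CPM (SD, n = 5 each), and the fitted log2 change was 0.52 (SE 0.16, 95% interval 0.17 to 0.87). That did not pass the test in edgeR (adjusted p = 0.315, unadjusted p = 0.00663). Without dorsal control 2 the log2 fold change was 0.72 and passed, at an adjusted p of 0.0425. That library had the highest Aqp4 of the controls, so leaving it out lowers the control mean and adds no support. Without the 4 libraries named above the log2 fold change was 0.36 (adjusted p = 0.356 in edgeR). Over all alternatives the adjusted p ran from 0.0425 to 0.581. The whole dorsal comparison gave few calls, 0.271% of 13647 genes, and none of them was among the 5. At an unadjusted p under 0.05 there was 1 of the 5, Aqp4, beside 8.11% of all genes tested. DESeq2 called 0 of the 5, beside 1.24% of all genes tested. The interval of the dorsal response of Aqp4 holds the ventral estimate, and the difference between the regional responses was a log2 value of 0.12 (SE 0.22, 95% interval -0.33 to 0.57, adjusted p = 0.955).

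Gja1 took a different course. In ventral controls 1 to 5 it measured 161, 179, 177, 162 and 161 CPM, and in ventral preconditioning 1 to 5 it measured 117, 148, 135, 144 and 147 CPM. The groups did not overlap, and all 5 preconditioned libraries lay below all controls, as did 2.96% of all genes tested. The means were 168 ± 9.18 and 138 ± 13.1 CPM (SD, n = 5 each), which edgeR fitted as a log2 change of -0.28 (SE 0.09, 95% interval -0.48 to -0.08). The adjusted p of 0.112 in edgeR missed the threshold, from an unadjusted p of 0.00967. DESeq2 and limma-voom with sample quality weights did call it, with adjusted p-values of 0.0368 and 0.0393. Both called more of all 13291 genes, 8.16% and 11.3%, than the 5.06% of the main fit.

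In dorsal controls 1 to 5, Gja1 measured 253, 354, 259, 199 and 273 CPM, and in dorsal preconditioning 1 to 5 it measured 249.7, 264, 209.8, 247 and 251 CPM. The preconditioned values lay within the range of the controls. The dorsal log2 fold change was -0.14 (SE 0.13, 95% interval -0.42 to 0.15, adjusted p = 0.858 in edgeR), and without dorsal control 2, the library with the highest Gja1, it was 0.00095. Dorsal control 2 thus bears on both genes, since its Aqp4 was also the highest of its group. The difference between the regional responses was -0.15 (SE 0.16, 95% interval -0.48 to 0.18, adjusted p = 0.916).

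**Figure D1:**
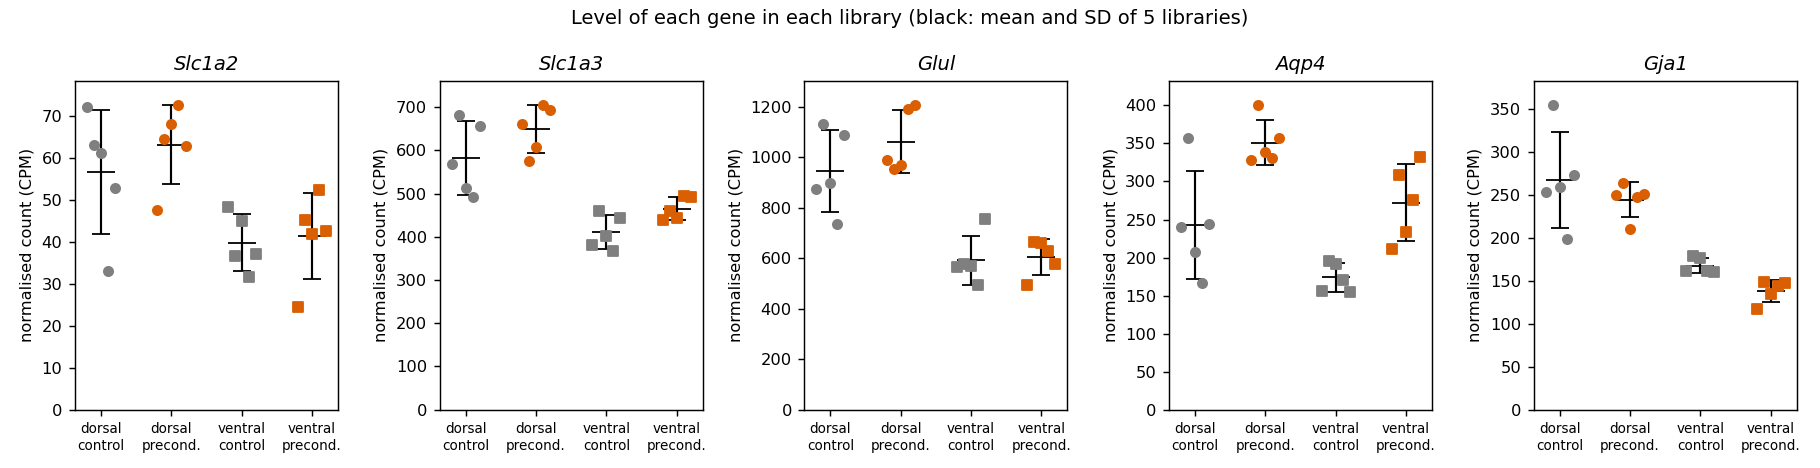
Normalised counts (CPM, linear axis from 0) of the 5 genes in each of the 20 libraries, by group; circles are dorsal and squares ventral libraries, grey control and orange preconditioning, with replicates 1 to 5 from left to right, and black marks are the mean and SD of 5 libraries. Ventral Aqp4 ran from 155 to 196 CPM in controls and from 211 to 332 CPM after preconditioning, and for Gja1 every ventral library lay below every dorsal library.

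A ratio of counts within a library does not depend on how libraries are scaled, so it was used to ask whether members moved apart. The log2 ratio of Gja1 to Aqp4 was 0.08, -0.01, 0.32, 0.26 and 0.16 in dorsal controls 1 to 5, and -0.40, -0.60, -0.69, -0.42 and -0.51 in dorsal preconditioning 1 to 5. These groups did not overlap. Dorsal control 2, the highest of its group in both genes, was the lowest dorsal control on this measure and still lay above every preconditioned library. The means were 0.16 ± 0.13 and -0.52 ± 0.12 (SD, n = 5 each), a difference of -0.68 (two-sided exact permutation p = 0.00794, adjusted p = 0.0317 over 12 ratio tests).

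The ventral ratio was 0.04, -0.13, -0.12, -0.08 and 0.05 in controls 1 to 5 and -0.86, -1.06, -0.79, -0.94 and -1.17 in preconditioning 1 to 5. The means were -0.05 ± 0.09 and -0.96 ± 0.16 (SD, n = 5 each), a difference of -0.92 with the same p-values (exact permutation p = 0.00794, adjusted p = 0.0317). The value 0.00794 is the smallest that 5 against 5 libraries can give. Gja1 counts thus fell relative to Aqp4 counts in both regions, with no overlap between the groups. In the ventral region that follows from the single genes, whose groups parted in opposite directions. The ratio stayed past the threshold when any 1 library was left out. Groups without overlap give the smallest possible raw p whichever library goes, so this adds no support. The share of other gene pairs that part without overlap was not counted. The adjusted p of the Gja1 to Aqp4 ratio was 0.0952 (dorsal) and 0.0714 (ventral) without the 4 libraries named above. With the number as a replicate block it was 0.188 in both. In these exact permutation tests each raw p was the smallest that so few samples allow. A ratio shows unequal change and does not say which of the genes moved.

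The ratio also differed between the regions. After preconditioning it was lower in the ventral subiculum by 0.44 on the log2 scale, with no overlap (exact permutation p = 0.00794, adjusted p = 0.0317). In controls the ventral mean was lower by 0.21 and the ranges overlapped (exact permutation p = 0.0317, adjusted p = 0.0952). The ventral fall of the ratio exceeded the dorsal one by 0.23 on the log2 scale. A two-sided exact permutation test of this on same-numbered libraries, chosen after the values had been seen, gave p = 0.0714. It pairs the preconditioned libraries by a number that was not taken as a pairing. Correlations of their deviations from the group means ran from 0.038 to 0.368 over the same-numbered pairs. The result is given as a value only, and a difference between the regions was not shown.

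**Figure D2:**
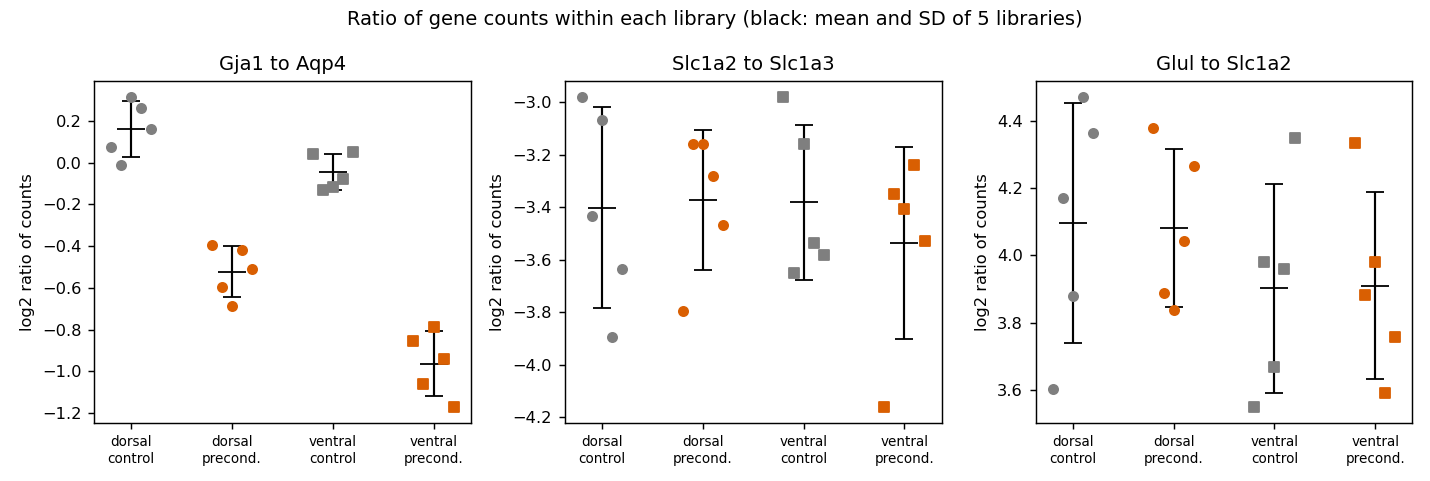
Log2 ratio of the counts of gene pairs within each of the 20 libraries, by group (symbols as for the levels; black marks are the mean and SD of 5 libraries, and the axes do not start at 0). Gja1 to Aqp4 fell from 0.16 to -0.52 in the dorsal and from -0.05 to -0.96 in the ventral subiculum. The groups overlapped for the other 2 ratios, which hold neither Aqp4 nor Gja1.

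The transporter genes gave no called change with treatment. Slc1a3 measured 568, 682, 513, 492 and 657 CPM in dorsal controls 1 to 5 and 661, 576, 607, 704 and 694 CPM in dorsal preconditioning 1 to 5. In the ventral subiculum it measured 381, 460.4, 401, 368 and 443 CPM in controls and 438, 460.3, 443, 494 and 491 CPM after preconditioning. Both pairs of groups overlapped, with the treated mean the higher. The log2 fold changes were 0.15 (SE 0.11, 95% interval -0.09 to 0.39, adjusted p = 0.811 in edgeR) and 0.18 (SE 0.09, 95% interval -0.02 to 0.38, adjusted p = 0.352).

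Slc1a2 had the fewest counts of the 5 genes, from 156 to 1399 per library, and at 156 counts the counting error alone is 8.01%. Whether the gene model used for Slc1a2 covers its whole transcript could not be checked, so its counts may be those of a part of it, and they bear on differences between samples only. In dorsal controls 1 to 5 it measured 72.2, 63.0, 61.2, 33.1 and 52.9 CPM, and in dorsal preconditioning 1 to 5 it measured 47.6, 64.5, 68.0, 72.4 and 62.7 CPM. The ventral values were 48.3, 36.6, 44.9, 31.7 and 37.1 CPM in controls and 24.5, 45.2, 41.8, 52.3 and 42.6 CPM after preconditioning. Libraries of a group differed more than the group means did. The log2 fold changes were 0.15 (SE 0.18, 95% interval -0.23 to 0.53, adjusted p = 0.894 in edgeR) in the dorsal and 0.07 (SE 0.17, 95% interval -0.30 to 0.44, adjusted p = 0.889) in the ventral region, so changes of up to about these limits cannot be told from none.

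Glul, the step after uptake, gave no called change with treatment either. It measured 876, 1134, 899.5, 735 and 1089 CPM in dorsal controls 1 to 5 and 991, 954, 971, 1193 and 1207 CPM in dorsal preconditioning 1 to 5. It measured 565, 578, 571, 493 and 755 CPM in ventral controls and 493, 667, 659.5, 631 and 576 CPM in ventral preconditioning. The groups of each region overlapped widely. The log2 fold changes were 0.16 (SE 0.13, 95% interval -0.11 to 0.43, adjusted p = 0.820 in edgeR) and 0.03 (SE 0.12, 95% interval -0.23 to 0.29, adjusted p = 0.939). Reads that Glul shares with its 2 pseudogenes named in the RefSeq table were counted in a way not given in the sources used here.

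The transporters and Glul were also set against each other within each library. With counts not divided by length, only differences between groups can be read from these ratios. The log2 ratio of Slc1a2 to Slc1a3 averaged -3.40 ± 0.38 in dorsal controls, -3.37 ± 0.27 in dorsal preconditioning, -3.38 ± 0.30 in ventral controls and -3.54 ± 0.37 in ventral preconditioning (SD, n = 5 each). The ratio of Glul to Slc1a2 averaged 4.10 ± 0.36, 4.08 ± 0.24, 3.90 ± 0.31 and 3.91 ± 0.28 in the same order. Neither ratio passed in any of the 4 comparisons, with adjusted p-values from 0.743 to 0.968 over the 12 exact permutation tests. Their spread within a group was wider than that of Gja1 to Aqp4, whose SD was between 0.09 and 0.16.

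For none of the 5 genes did the regional responses differ by test. The interaction was tested over all 20 libraries, where 0.0781% of 14087 genes were called. Of the 5 genes, 0 were called in edgeR, and 0 had an unadjusted p under 0.05, beside 6.73% of all genes. DESeq2 called 0 of them, beside 0.39% of all genes. The estimates for Slc1a2, Slc1a3 and Glul were -0.09 (95% interval -0.64 to 0.46), 0.02 (-0.26 to 0.31) and -0.14 (-0.51 to 0.23).

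**Figure D3:**
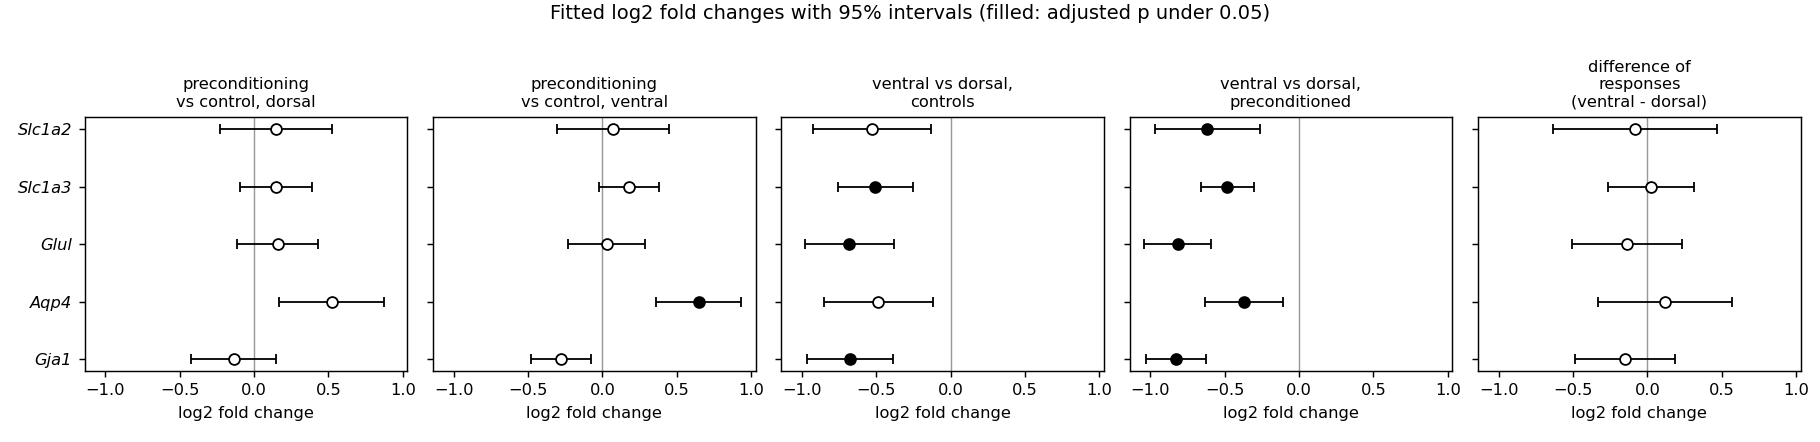
Fitted log2 fold changes of the 5 genes with 95% intervals in the 4 comparisons and, at the right, the difference between the ventral and dorsal responses; filled circles have an adjusted p under 0.05 in edgeR's quasi-likelihood test. With treatment only ventral Aqp4 (0.65) is filled, and all 10 estimates of ventral against dorsal lie below 0.

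The difference between the regions was broader than that with treatment. All 5 genes had lower estimates in the ventral than in the dorsal subiculum in both conditions. In controls, 3 of the 5 passed the test, each of them lower, where 25.7% of 13509 genes were called, with 14.5% called in the lower direction. That fit did not use the pairing of controls by number described below. With the pairing all 5 passed, in a fit that called 36.4% of all genes. After preconditioning all 5 passed, each lower, where 26.7% of 13640 genes were called, with 14.7% called in the lower direction. The median log2 fold change of the 5 genes was -0.53 in controls and -0.62 after preconditioning, beside 0.02 and 0.02 over all genes tested. Each group enters both a regional and a treatment comparison, so these comparisons share samples.

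Gja1 and Glul had the lowest ventral against dorsal values. Gja1 averaged 268 ± 55.9 CPM in the dorsal controls and 168 ± 9.18 CPM in the ventral ones (SD, n = 5 each), which edgeR fitted as a log2 change of -0.68 (SE 0.13, adjusted p = 0.00195). After preconditioning it averaged 244 ± 20.4 and 138 ± 13.1 CPM, which edgeR fitted as a log2 change of -0.83 (SE 0.10, adjusted p = 1.95e-05). In both conditions every ventral library lay below every dorsal one, which held for 10.3% of all genes tested in controls and for 10.3% after preconditioning.

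Glul averaged 947 ± 164 CPM in the dorsal controls and 593 ± 97.1 CPM in the ventral ones (SD, n = 5 each), which edgeR fitted as a log2 change of -0.68 (SE 0.14, adjusted p = 0.00245). The groups overlapped through dorsal control 4 at 735 CPM and ventral control 5 at 755 CPM. After preconditioning the means were 1063 ± 126 and 605 ± 72.1 CPM, with a fitted log2 change of -0.82 (SE 0.10, adjusted p = 4.68e-05). These groups did not overlap, as for 10.3% of all genes in the lower direction.

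Slc1a3 was lower in the ventral subiculum by 1.42-fold in controls and by 1.40-fold after preconditioning. Its log2 fold changes were -0.51 (SE 0.12, adjusted p = 0.00599 in edgeR) and -0.48 (SE 0.08, adjusted p = 0.000610). The groups did not overlap in either condition, as for 10.3% of all genes in the lower direction in each. Slc1a2 had values of the same size with wider errors. In controls its log2 fold change was -0.53 (SE 0.19, 95% interval -0.92 to -0.13, adjusted p = 0.0506), just outside the threshold, and after preconditioning -0.62 (SE 0.16, adjusted p = 0.0120), with overlapping groups both times.

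Aqp4 in controls was just outside the threshold too, at a fitted log2 change of -0.49 (SE 0.17, 95% interval -0.85 to -0.12, adjusted p = 0.0511 in edgeR). After preconditioning it was -0.37 (SE 0.12, 95% interval -0.63 to -0.11, adjusted p = 0.0357), and the groups overlapped in both conditions. That call was lost in 9 of 17 alternative fits, with adjusted p-values of up to 0.0898. Those 9 include leaving out dorsal preconditioning 2, 3, 4 or 5 or ventral preconditioning 1, 3 or 4. They also include leaving out the 4 libraries, which in this comparison is the same fit as leaving out dorsal preconditioning 2. In controls, dorsal and ventral libraries of the same number deviated from their group means in like ways, so the number was taken as a pairing. With the pair as a block all 5 genes passed, Slc1a2 at -0.48 (adjusted p = 0.00398) and Aqp4 at -0.45 (adjusted p = 0.0118), in a fit that called 36.4% of all genes. All 5 also passed without dorsal control 4, where 26.9% of all genes were called, and without the 4 libraries named above, where 27.2% were.

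Pair by pair, the ventral library was the lower in 5 of 5 control pairs for Slc1a2, Slc1a3, Glul and Gja1, and in 4 of 5 for Aqp4. The exception was pair 4, with a log2 ventral-to-dorsal value of 0.04 for Aqp4 where the other control pairs lay between -0.87 and -0.12. After preconditioning, where the number was not taken as a pairing, the ventral library was the lower in 5 of 5 for all 5 genes. The share of all genes lower in 5 of 5 pairs was not counted, so these counts only describe the 5 genes. Slc1a3 was the most even over the pairs, with values from -0.58 to -0.36 in controls and from -0.59 to -0.32 after preconditioning.

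**Figure D4:**
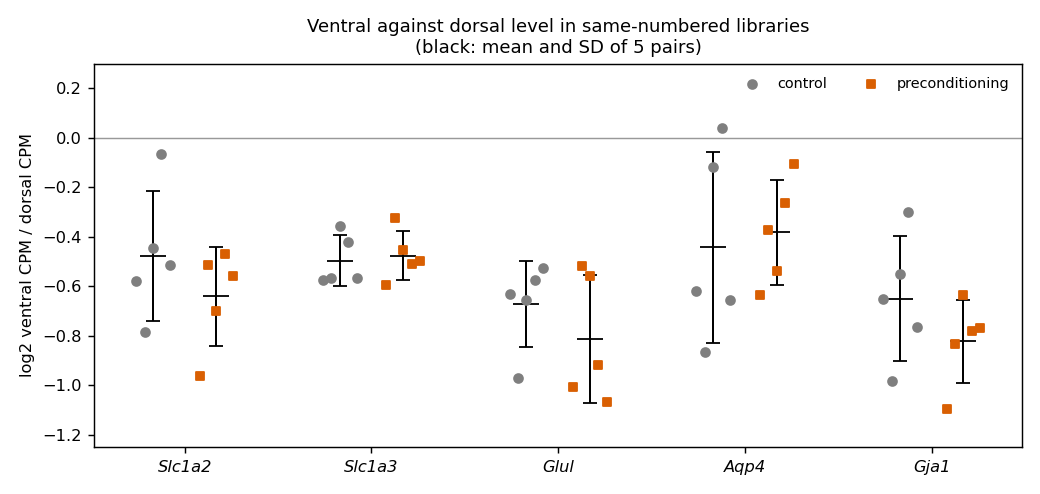
Log2 of the ventral over the dorsal CPM for each gene in same-numbered libraries (grey circles are 5 control pairs, orange squares 5 preconditioned pairs, in number order from left to right; black marks are the mean and SD). All points lie below 0 except Aqp4 in control pair 4 (0.04).

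The order of the group means was the same for Slc1a2, Slc1a3 and Glul, from dorsal preconditioning through dorsal control and ventral preconditioning to ventral control. For Slc1a2 and Slc1a3 each neighbour in this order overlapped the next, and for Glul dorsal control and ventral preconditioning did not overlap. Aqp4 had both preconditioned groups above both control groups, with every neighbour overlapping. Gja1 had both control groups above the preconditioned group of their region, and of its neighbours only dorsal control and dorsal preconditioning overlapped.

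Some libraries were low or high in several of these genes at once. Dorsal control 4 was the lowest of its group in 5 of 5 genes, where it was the lowest for 31.3% of all 14087 genes. Ventral preconditioning 1 was the lowest of its group in 5 of 5, where it was the lowest for 20.2% of all genes. Dorsal control 2 was the highest of its group in 4 of 5, where it was the highest for 15.0% of all genes.

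Likeness between profiles was measured as the root-mean-square difference of log2 CPM over the 20 libraries, after centring each gene on its own mean, so that a smaller value means a closer course. Among the 5 genes the closest pair was Slc1a3 and Glul, at 0.18, and the farthest was Aqp4 and Gja1, at 0.45. Of all other genes of comparable or higher level, the closest to Aqp4 was ENSRNOG00000025528, at 0.18, with a log2 fold change of 0.65 for ventral treatment. The closest to Slc1a3 was ENSRNOG00000046005, at 0.12, with 0.37 for the same comparison. ENSRNOG00000054058 was the closest to Gja1, at 0.15, and ENSRNOG00000007290 the closest to Glul, at 0.17. The closest gene to Slc1a2 lay at 0.18. The median distance over the genes searched was between 0.36 and 0.49. These genes were picked for their likeness over the same 20 libraries, so their values only describe it and are not tested. No name is paired with their IDs here.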

How the data were processed

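RNA was measured in 20 libraries of 4 groups of 5. The authors deposited raw counts per Ensembl gene ID in 1 table, with no normalization. The submitters' processing notes name STAR, DESeq2 and the build Rnor_5.0, without versions, and the counting tool, annotation and use of strand are not given in the sources used here. Columns of the treated libraries begin with e where titles begin with p, and were matched by number and region letter. Of 47357 RefSeq genes, 0 carried an ID of the file, so planned lists of pathway and marker genes were not used.

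Counts were fitted with edgeR 4.0.16 in R 4.3.3 (filterByExpr, TMM, robust quasi-likelihood F-test). The 4 comparisons used their own 10 libraries and the interaction all 20. Benjamini-Hochberg adjusted p-values under 0.05 over all genes were called. CPM used TMM over all 20 libraries. The standard error is the log2 fold change divided by the square root of F. The scripts were tested on simulated data. Ratios were log2 ratios of raw counts with exact permutation tests. The text names the 5 genes and, for each, the gene with the closest profile among those with a mean CPM of at least 0.5 times its own, and the ID closest to Slc1a2 is left out to keep unnamed IDs few. The genes and lists were chosen with earlier results of these data known.

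Over 14087 genes, same-numbered dorsal and ventral controls had correlated deviations from their group means in all 5 pairs (r from 0.200 to 0.393), which is the source of the pairing. This did not hold for every pair in the other comparisons. Pairs of libraries within a group differed by more than sampling noise (chi-square per degree of freedom of at least 3.37). Alternatives were DESeq2 1.42.0, a replicate block, the size factors of DESeq2 used in edgeR, every gene with 1 count or more, sample quality weights in limma-voom 3.58.1, all 20 libraries in 1 fit, each library left out and 4 libraries left out. Figures used matplotlib 3.10.9.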

Additional observations from a re-analysis of the deposited data

How the results depend on the processing

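Of 470 alternative fits of single genes, 426 kept the direction and the side of the threshold. In 15 the sign reversed, for estimates between -0.14 and 0.12 in the main fit, none of them called. The rest kept the direction and crossed the threshold. For the regions after preconditioning, the fits without dorsal preconditioning 2 and without the 4 libraries are the same and are both counted. The number of the 5 genes called was 0 to 1 with 1 library left out in the dorsal treatment comparison, where dorsal control 2 gave the 1. In the ventral one it was 2 in DESeq2 and in limma-voom, through Gja1, and 1 with any library left out. For the regions in controls it was 5 in place of 3 in DESeq2, with no filter beyond 1 count and with the replicate block. It was also 5 in limma-voom, with all 20 libraries and without the 4 libraries. With 1 library left out it was 3 to 5 (5 without dorsal control 4). After preconditioning it was 4 to 5 with 1 left out. The replicate block changed no other gene's call. For the other comparisons the number was not taken as a pairing, with mean correlations of -0.03 (dorsal treatment), 0.148 (ventral treatment) and 0.197 (regions after preconditioning).

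The number of ratios past the threshold went from 1 to 0 with same-numbered pairs as a replicate block in both treatment comparisons and for the regions after preconditioning, where 5 pairs cannot give a p below 0.0625. It went from 1 to 0 in both treatment comparisons without the 4 libraries, where the smallest possible p is 0.0286 (dorsal) and 0.0179 (ventral); the Gja1 to Aqp4 differences were then -0.64 and -0.96. For the regions in controls it was 0 to 1 with 1 library left out (1 without dorsal control 2).

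Estimates that reversed had adjusted p-values of 0.651 or more and moved within these limits. With 1 library left out, Gja1 in the dorsal treatment ran from -0.22 to 0.00095, ventral Slc1a2 from -0.0082 to 0.21 and ventral Glul from -0.031 to 0.13. The interaction ran from -0.19 to 0.065 for Slc1a2, from -0.036 to 0.086 for Slc1a3 and from -0.062 to 0.23 for Aqp4. Slc1a2 to Slc1a3 ran from -0.093 to 0.14 (dorsal treatment), from -0.23 to 0.0018 (ventral treatment) and from -0.10 to 0.13 (regions in controls), and Glul to Slc1a2 from -0.14 to 0.079 and from -0.10 to 0.12 in the treatment comparisons. Without the 4 libraries, ventral Slc1a2 was -0.050 and ventral Glul -0.049, and the dorsal ratios were -0.15 (Slc1a2 to Slc1a3) and 0.13 (Glul to Slc1a2). In limma-voom the interaction of Slc1a2 was 0.080. The cause was not tested.

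For the regions in controls, the share of all genes called was 25.7%, and it was 29% in DESeq2, 16.8% with no filter beyond 1 count, 36.4% with the replicate block, 37.5% in limma-voom, 30.8% with all 20 libraries and 27.2% without the 4 libraries. With 1 library left out, 2736 to 3941 genes were called in controls and 2917 to 3678 after preconditioning. Over all genes, the 37 dorsal calls became 169 in DESeq2, 165 in limma-voom, 97 with all 20 libraries, 105 without the 4 libraries and 15 to 50 with 1 left out. The 672 ventral calls became 1085 in DESeq2, 1508 in limma-voom, 1261 with the block and 432 to 1029 with 1 left out. The 11 interaction calls became 55 in DESeq2, 97 in limma-voom, 62 with the block, 17 without the 4 libraries and 6 to 20 with 1 left out.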

Other observations

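Values were searched for a library far from the others of its group by Dixon's criterion. Total counts, the CPM of the 5 genes and the 3 ratios gave 36 groups of 5 values. In 0 of them a library stood apart, and about 1.8 would do so by chance.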
